A study of Sus scrofa with 22 samples.

Results

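The genes described here sense bile acids or carry them across membranes. They were chosen by symbol: NR1H4, VDR, GPBAR1, S1PR2, FGFR4, KLB, SLCO1A2, ABCC4, SLC51A and ABCB11. Of these 10 genes, 9 matched 1 pig Ensembl identifier each among the 31907 identifiers counted. ABCC4 matched none and was not analysed here. RNA was counted in the cerebellum of 22 piglets (Sus scrofa) that had surgery at 8 days of life and were followed for 3 weeks. In 11 animals (7 female, 4 male) the bile duct was tied off (bile duct ligation, BDL), which stops bile from leaving the liver, and 11 animals (5 female, 6 male) had sham surgery (SHAM). The labels name no strain, genotype or drug for either group, and do not say whether animals shared a litter. The piece taken was whole cerebellar tissue, so fewer cells of a type and less RNA per cell cannot be told apart.

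Bile acids are made from cholesterol in the liver and return to it from the gut. When bile cannot drain, they spill into blood and can reach the brain. Cells sense them through nuclear receptors that switch genes on, chiefly FXR (encoded by NR1H4) and the vitamin D receptor VDR, and through receptors of the cell surface, chiefly TGR5 (GPBAR1), which raises cyclic AMP, and the sphingosine 1-phosphate receptor S1PR2. A relayed signal is the hormone FGF19, which the gut releases in response to bile acids and which binds the receptor FGFR4 together with the co-receptor beta-Klotho (KLB). Because bile acids are charged, they need carriers: SLCO1A2 brings them into cells, ABCC4 and ABCB11 pump them out, and SLC51A forms, with SLC51B, a 2-part exporter.

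Libraries held 14811464 to 20046909 gene counts. Levels are counts-per-million values (CPM), TMM-scaled between libraries but not divided by transcript length, so levels of different genes are not ranked against each other. The tissue label fitted its markers: 6 of 6 granule neuron markers and 6 of 6 Purkinje cell markers were counted in every library, with CBLN1 at 1275 to 1675 CPM and CALB1 at 286 to 494 CPM. Choroid plexus, the tissue that secretes cerebrospinal fluid, was present in unequal amounts. Its summed markers (7 of 8 matched) ran from 93.5 to 1585 CPM in BDL and from 97.0 to 998 CPM in SHAM animals. Among them OTX2 was at 68.9 to 100.6 CPM and made up most of the sum at its lower end, while TTR ran from 1.66 to 1393 CPM. Over 400 CPM of TTR were counted in 4 animals, 2 of each group by label (BDL replicates 1 and 4, SHAM replicates 9 and 10).

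By their levels the genes fell into 3 classes. VDR, S1PR2, FGFR4, KLB and SLCO1A2 had a median of at least 1 CPM over the 22 animals, and these 5 passed the count filter and were tested. GPBAR1 and SLC51A were low, with medians between 0.1 and 1 CPM. NR1H4 and ABCB11 had medians under 0.1 CPM. Transcripts were thus well counted for the surface receptor S1PR2, the nuclear receptor VDR, the FGF19 receptor pair and the uptake carrier SLCO1A2, and were scarce for FXR, TGR5 and the exporters SLC51A and ABCB11.

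Between BDL and SHAM, edgeR's quasi-likelihood test called 0 of the 5 tested genes at an adjusted p under 0.05, as it called 0% of all 14994 genes. DESeq2 and limma-voom also called 0 of the 5, each with an unadjusted p under 0.05 for KLB alone. KLB was the 1 of 5 with an unadjusted p under 0.05, a level that 4.96% of all genes reached. The 5 estimates were on the higher side in BDL, as were 50.3% of all genes, with a median log2 fold change of 0.18 against 0.0006 over all genes. The signs for VDR and S1PR2 turned when single animals were left out. CPM of BDL and SHAM animals overlapped for each of the 9 genes, and the share of all tested genes without overlap was 0%. The 95% confidence interval excluded a 1.5-fold difference either way for 4 of the 5 genes, FGFR4 being the exception, and for 87.0% of all genes.

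**Figure D1:**
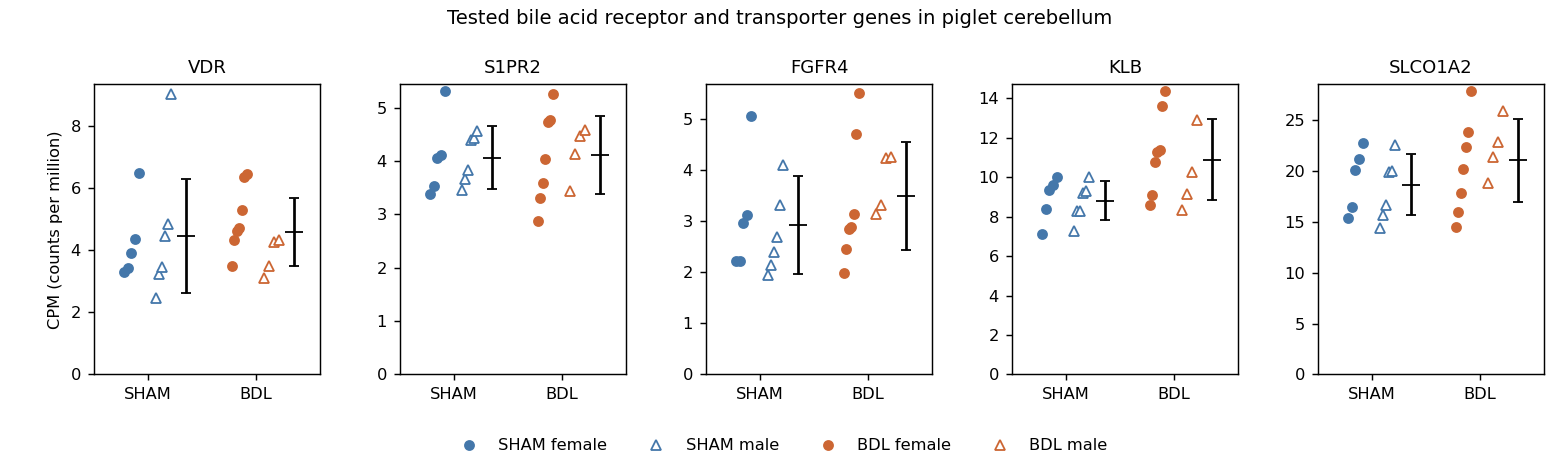
CPM (linear axes from 0) of the 5 tested genes in each animal, by treatment. Filled circles are females, open triangles males, and bars give the mean and SD of the 11 animals. For KLB, 7 BDL animals lie above the highest SHAM animal, while no BDL animal lies above the highest SHAM animal for VDR or S1PR2.

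The FGF19 receptor pair is described first. KLB (ENSSSCG00000026297), on chromosome 8 (30653434 to 30696123 on Sscrofa11.1), encodes the single-pass membrane protein that lets FGFR4 bind FGF19 and lets other FGF receptors bind FGF21. It ran from 8.35 to 14.4 CPM in BDL (median 10.8) and from 7.12 to 10.04 CPM in SHAM animals (median 9.19). Of the BDL animals, 7 of 11 lay above the highest SHAM animal and 4 SHAM animals lay below the lowest BDL animal, while the groups overlapped between 8.35 and 10.04 CPM. The means were 10.9 ± 2.1 CPM in BDL and 8.82 ± 1.01 CPM in SHAM (SD, n = 11 each). The log2 fold change was 0.29 ± 0.10 (SE), or 1.22-fold with a 95% interval of 1.06 to 1.41, and 9 of 11 BDL animals exceeded the SHAM mean. Its unadjusted p of 0.00823 ranked 100 among 14994 genes, and the edgeR adjusted p was 0.881.

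In single animals KLB was highest in BDL replicate 8 (252 reads, 14.4 CPM), BDL replicate 2 (213 reads, 13.6 CPM) and BDL replicate 11 (222 reads, 12.9 CPM). Its lowest values were in SHAM replicate 8 (128 reads, 7.12 CPM) and SHAM replicate 3 (112 reads, 7.30 CPM). Among females the means were 11.3 ± 2.1 CPM in 7 BDL and 8.91 ± 1.17 CPM in 5 SHAM animals (log2 fold change 0.34 ± 0.14, edgeR adjusted p = 0.795), and 6 of 7 BDL females exceeded the SHAM female mean. Among males they were 10.2 ± 2.0 CPM in 4 BDL and 8.74 ± 0.96 CPM in 6 SHAM animals (0.22 ± 0.15, adjusted p = 0.9999), and 3 of 4 BDL males exceeded the SHAM male mean. The difference between the sexes was 0.13 ± 0.20 on the log2 scale (adjusted p = 0.943).

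RefSeq places the ribosomal protein gene RPL9 over 2926 bases of the KLB span. The sources used here do not give the strand setting of the counting, so reads of one gene may have been counted or discarded for the other. RPL9 itself had no identifier matched by symbol, so its reads could not be set against those of KLB. The mean of 41 other ribosomal protein genes was taken instead, and it cannot show whether RPL9 reads were counted for KLB. After removal of the sex and treatment means, KLB had Pearson's r = 0.15 with this mean over the 22 animals (permutation p = 0.501) and Spearman's rho = 0.05 (p = 0.835). Leaving out the 2 animals farthest from the median of that mean gave r = 0.20.

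FGFR4 (ENSSSCG00000014047), on chromosome 2 (80841536 to 80853791), encodes the receptor tyrosine kinase that carries the FGF19 signal in liver. It ran from 1.98 to 5.51 CPM in BDL (median 3.15) and from 1.95 to 5.07 CPM in SHAM (median 2.70). The groups covered nearly the same range, and 1 BDL animal, replicate 1, lay above the highest SHAM animal. The means were 3.50 ± 1.05 and 2.93 ± 0.95 CPM, and the log2 fold change was 0.25 ± 0.18 (adjusted p = 0.881; 1.19-fold, interval 0.916 to 1.55). Without SHAM replicate 11, the highest SHAM animal at 5.07 CPM, the log2 fold change was 0.39 (unadjusted p = 0.0343, adjusted p = 0.821). Without BDL replicate 1, the highest BDL animal, it was 0.18 (unadjusted p = 0.332, adjusted p = 0.8475). These were the highest and lowest estimates when single animals were left out. The 4 BDL males were at 3.15 to 4.25 CPM, each above the SHAM male mean of 2.77 CPM, and the difference of the BDL effect between females and males was -0.33 ± 0.37 (adjusted p = 0.926).

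Of the 7 genes listed beside this receptor pair, 6 matched and 5 were tested, with 2 on the higher side and 3 on the lower, a median log2 fold change of -0.06 and 0 called. FGFR1, a receptor of neurons and glia that also pairs with KLB, averaged 396 ± 37 CPM in BDL against 407 ± 38 (SD) under SHAM (-0.06 ± 0.05, adjusted p = 0.881). FGFR3, an astrocyte-rich receptor, was at 188 ± 15 and 196 ± 18 CPM (-0.06 ± 0.05). The hormones themselves were looked up after their values were seen: FGF19 had 8 reads in 6 of 22 libraries, and FGF21 averaged 8.84 ± 0.74 CPM in BDL against 8.50 ± 1.59 under SHAM.

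Among the surface receptors, S1PR2 (ENSSSCG00000013658, chromosome 2, 69050396 to 69057270) encodes a G protein-coupled receptor of the lipid sphingosine 1-phosphate that conjugated bile acids also activate. It ran from 2.87 to 5.26 CPM in BDL (median 4.13) and from 3.37 to 5.32 CPM in SHAM (median 4.06). The highest animal was a SHAM animal (replicate 2), the lowest a BDL animal (replicate 4), and 6 of 11 BDL animals exceeded the SHAM mean. Means were 4.11 ± 0.73 and 4.07 ± 0.58 CPM, and the log2 fold change was 0.02 ± 0.12 (adjusted p = 0.985; 1.01-fold, interval 0.857 to 1.19). With a coefficient of variation of 15.9% over the 22 animals it varied less among animals than VDR (32.8%) and FGFR4 (31.8%); these differences in variation were not tested.

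The sphingosine 1-phosphate list around S1PR2 had 10 matched genes, of which 9 were tested, with 5 on the higher side, 4 on the lower and 0 called (median 0.04). S1PR1, the receptor of endothelium and astrocytes, averaged 109 ± 14 CPM in BDL against 114 ± 11 under SHAM (-0.07 ± 0.07). SPHK2, which makes the lipid, was at 62.2 ± 3.8 and 59.9 ± 7.5 CPM (0.03 ± 0.06; 0.035 before rounding). SPNS2, which exports it, was at 51.5 ± 6.0 and 47.1 ± 5.0 CPM (0.12 ± 0.07, unadjusted p = 0.0903, adjusted p = 0.881), and S1PR5, the receptor of oligodendrocytes, at 12.9 ± 4.8 and 10.9 ± 3.7 CPM (0.24 ± 0.21).

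GPBAR1 (ENSSSCG00000022483, chromosome 15, 120336196 to 120339506), the gene of TGR5, had 157 reads over the 22 libraries and did not pass the count filter. BDL animals had 0 to 14 reads (median 9) and SHAM animals 1 to 17 (median 7), or 0.43 ± 0.26 and 0.39 ± 0.28 CPM. The lowest animal was BDL replicate 9 with 0 reads and the highest SHAM replicate 9 with 17, so the groups overlapped over nearly their whole range. In the edgeR fit without a count filter (25710 genes, 0% called) the log2 fold change was 0.11 ± 0.42 with an interval of 0.594 to 1.95-fold (adjusted p = 0.979). At this depth the counts are compatible with any difference within that interval.

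The list of cyclic AMP genes through which TGR5 signals had 7 matched and tested genes. Of these, 6 were on the lower side in BDL and 1 on the higher (median -0.13), while 50.3% of all genes were on the higher side. An unadjusted p under 0.05 was reached by 3 of the 7, against 4.96% of all genes, and 0 were called. PDE4B and ADCY1 had the smallest p of this list and were named by that rule. ADCY1, a neuronal adenylyl cyclase, averaged 227 ± 48 CPM in BDL against 279 ± 49 under SHAM (-0.30 ± 0.12, adjusted p = 0.881), and 1 of 11 BDL animals exceeded the SHAM mean. PDE4B, which breaks cyclic AMP down, was at 80.3 ± 12.2 and 93.1 ± 12.2 CPM (-0.20 ± 0.08, adjusted p = 0.881), again with 1 of 11 above the SHAM mean. These genes serve many receptors besides TGR5.

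Among the nuclear receptors, VDR (ENSSSCG00000020864, chromosome 5, 78205807 to 78266505) encodes the vitamin D receptor, which the bile acid lithocholic acid also activates. It ran from 3.10 to 6.46 CPM in BDL (median 4.35) and from 2.48 to 9.03 CPM in SHAM (median 3.93). SHAM animals held both the lowest value (replicate 3, 38 reads) and the highest (replicate 9, 163 reads). Means were 4.60 ± 1.10 and 4.46 ± 1.85 CPM, and the log2 fold change was 0.01 ± 0.19 (adjusted p = 0.996; interval 0.767 to 1.31-fold). BDL females were at 5.05 ± 1.08 CPM (n = 7) against 4.31 ± 1.29 in SHAM females (n = 5), and BDL males at 3.81 ± 0.61 (n = 4) against 4.59 ± 2.34 in SHAM males (n = 6). The difference of the effect between females and males was 0.50 ± 0.37 on the log2 scale (edgeR adjusted p = 0.917), and the SHAM male mean includes replicate 9 at 9.03 CPM.

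NR1H4 (ENSSSCG00000000875, chromosome 5, 83607222 to 83732668), the gene of FXR, had 48 reads in all, 19 in BDL and 29 in SHAM animals. BDL animals had 0 to 4 reads (median 2) and SHAM animals 0 to 9 (median 1), and 5 of 22 libraries had none. A library without a read allows up to 3 reads, or 0.150 to 0.203 CPM depending on its depth. Both medians lie under that limit and no fold change is given.

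Partners and targets of these nuclear receptors came from further lists. RXRA and RXRB, which pair with FXR and VDR on DNA, were at 30.2 ± 2.9 against 27.4 ± 3.2 CPM (log2 fold change 0.15 ± 0.07) and at 74.2 ± 5.2 against 68.1 ± 5.2 CPM (0.12 ± 0.05). For each, 10 of 11 BDL animals exceeded the mean of SHAM, with unadjusted p of 0.0396 and 0.0195 and an edgeR adjusted p of 0.881 for both. Of the 8 other receptors and partners listed, 6 were tested, with 4 on the higher side, 2 on the lower and 0 called (median 0.14). Of 9 matched genes listed as FXR and VDR targets only SLC51B and SLC7A5 passed the count filter, and both were on the lower side (-0.22 ± 0.24 and -0.04 ± 0.07). SLC7A5 is also one of the endothelial markers used here, so its level need not follow these receptors. NR0B2, the repressor that FXR induces in liver, had 25 reads in 12 of 22 libraries, and CYP24A1, the vitamin D-degrading enzyme that VDR induces, 103 reads in 18 libraries. These last 2 were chosen after their values were seen.

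**Figure D2:**
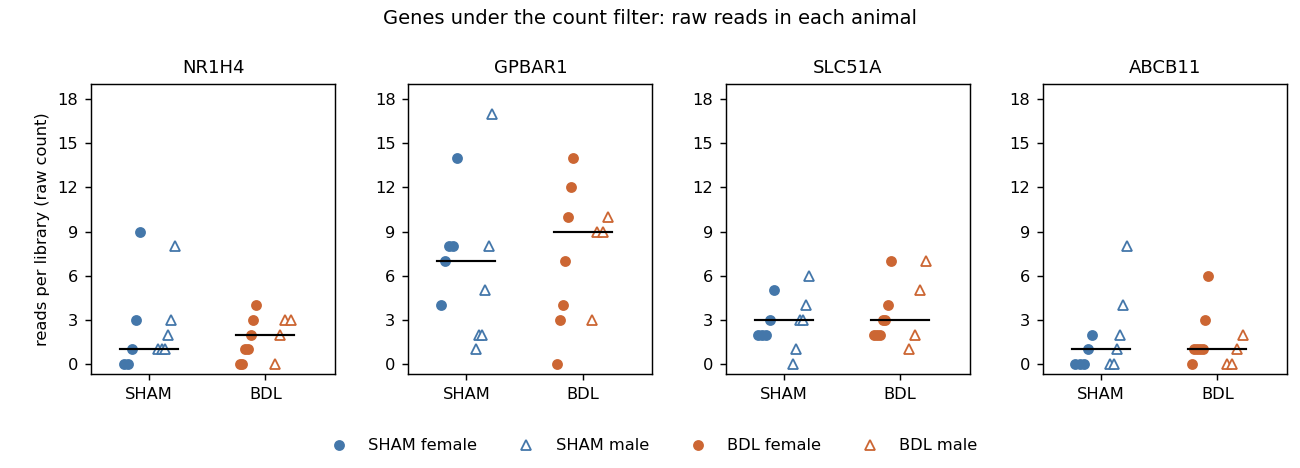
Raw reads per library (linear axis) of the 4 genes that did not pass the count filter, 1 point per animal, with the group median as a line. Filled circles are females and open triangles males. NR1H4, SLC51A and ABCB11 stay at 9 reads or fewer in each library and GPBAR1 reaches 17.

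SLCO1A2 (ENSSSCG00000000584, chromosome 5, 52020303 to 52133132) encodes an organic anion carrier of the blood-brain barrier and of epithelia that takes up bile acids, steroid sulfates and thyroid hormones. It was counted in every library, with 216 to 496 reads. Levels ran from 14.5 to 27.9 CPM in BDL (median 21.4) and from 14.4 to 22.7 CPM in SHAM (median 19.9). Of the BDL animals, 4 of 11 lay above the highest SHAM animal and the lowest values of the groups were nearly equal. Means were 21.1 ± 4.1 and 18.6 ± 3.0 CPM, and the log2 fold change was 0.18 ± 0.11 (unadjusted p = 0.107, adjusted p = 0.881; 1.13-fold, interval 0.971 to 1.32). The 4 BDL males were at 18.8 to 25.9 CPM, each over the mean of SHAM males, 18.2 CPM, and 4 of 7 BDL females exceeded the SHAM female mean of 19.2 CPM. The difference of the effect between females and males was -0.20 ± 0.22 (adjusted p = 0.918).

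SLCO1A2 varied with oligodendrocyte markers, the genes of the cells that make myelin. After removal of the sex and treatment means, its log2 CPM had Pearson's r = 0.88 and Spearman's rho = 0.85 with the mean of 7 such markers over 22 animals. The permutation p of r was 1e-05, the smallest that 100000 permutations can give, and the value adjusted over 60 relations of 5 genes with 12 marker lists was 0.0003. Leaving out the 2 animals farthest from the median of the marker mean gave r = 0.83, and r was 0.92 within BDL and 0.82 within SHAM animals. Oligodendrocyte precursor markers gave r = 0.83 (rho = 0.80, adjusted p = 0.0003) and astrocyte and Bergmann glia markers r = 0.61 (rho = 0.55, adjusted p = 0.0266; adjusted p of rho 0.0854). Endothelial markers gave r = 0.27 (rho = 0.25, adjusted p = 0.506) and choroid plexus markers r = 0.27 (rho = 0.20, adjusted p = 0.506). Pericyte and smooth muscle markers gave r = 0.50 (rho = 0.48, adjusted p = 0.104) and hepatocyte markers r = 0.55 (rho = 0.52, adjusted p = 0.058). With granule neuron markers r was -0.50 (rho = -0.49, adjusted p = 0.104).

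FGFR4 also followed oligodendrocyte markers, with r = 0.76 and rho = 0.72 (permutation p = 6e-05, adjusted p = 0.0012). Without the 2 farthest animals r was 0.72, and within BDL and SHAM it was 0.85 and 0.65. It had r = 0.65 with precursor markers (rho = 0.51, adjusted p = 0.0161; adjusted p of rho 0.136) and r = 0.62 with astrocyte markers (rho = 0.55, adjusted p = 0.0266; adjusted p of rho 0.0854). A hepatocyte list gave r = 0.60 (rho = 0.59, adjusted p = 0.0281; adjusted p of rho 0.0602); that list holds TF, the transferrin gene, which oligodendrocytes express too, and its gene ALB stood at 2.85 to 5.34 CPM. FGFR4 and SLCO1A2 had r = 0.61 with each other (rho = 0.52, adjusted p = 0.0246 over 10 pairs; adjusted p of rho 0.144; r = 0.51 without the 2 farthest animals), the only pair of the 5 tested genes with an adjusted p of r under 0.05.

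KLB, VDR and S1PR2 did not show this relation. Their r with oligodendrocyte markers was -0.10, -0.04 and -0.16 (rho = 0.08, -0.08 and -0.15; adjusted p = 0.875, 0.892 and 0.784). None of their 36 relations with marker lists had an adjusted p under 0.05. The r farthest from 0 was -0.49 in both KLB with Purkinje cell markers (rho = -0.47) and S1PR2 with choroid plexus markers (rho = -0.37), each with an adjusted p of 0.104. Without the 2 farthest animals these were -0.39 and -0.22.

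**Figure D3:**
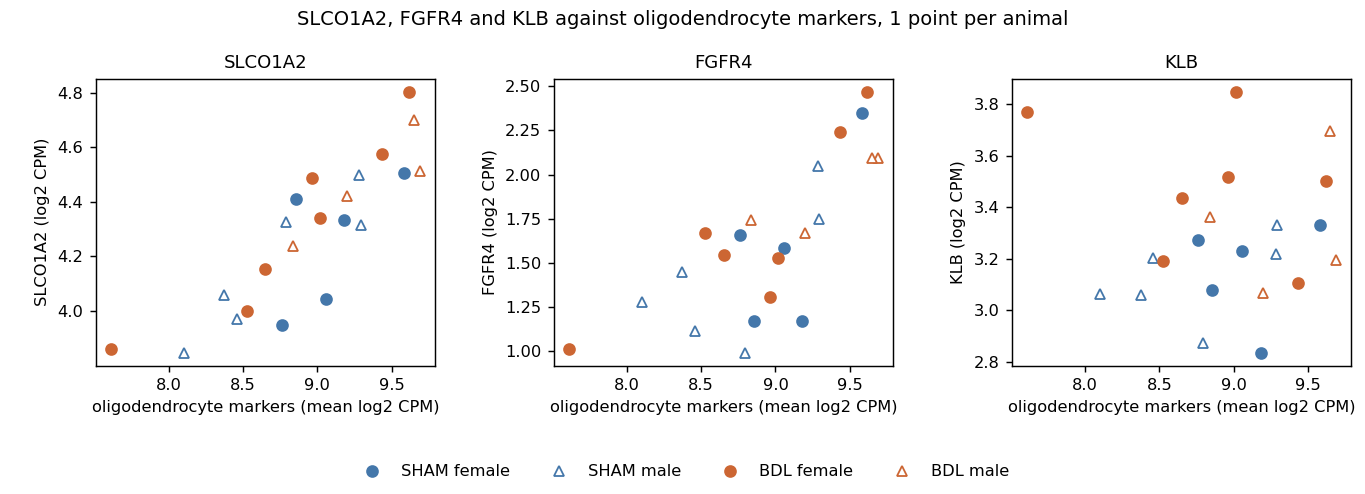
Log2 CPM of SLCO1A2, FGFR4 and KLB against the mean log2 CPM of 7 oligodendrocyte markers, 1 point per animal, coloured by treatment; filled circles are females and open triangles males. SLCO1A2 and FGFR4 rise along the marker axis in both treatments (r = 0.88 and 0.76 after removal of sex and treatment means), and KLB shows no such trend (r = -0.10).

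The oligodendrocyte markers (7 of 8 matched, none at 0 in any library) stood on the higher side in BDL for 7 of 7 tested genes (median log2 fold change 0.18, 0 called), with summed levels of 4843 to 27640 CPM in BDL and 6933 to 24290 CPM in SHAM animals. With the marker mean as a term in the fit, an alternative chosen after the data were seen, the log2 fold change was 0.11 ± 0.06 for SLCO1A2 (unadjusted p = 0.101) and 0.15 ± 0.14 for FGFR4 (p = 0.279), against 0.18 and 0.25 without it. KLB was at 0.29 ± 0.10 with the term and 0.29 without it. Without the 4 animals of over 400 CPM of TTR, also chosen afterwards and leaving 9 animals in each group, SLCO1A2 was at 0.09 ± 0.11, FGFR4 at 0.18 ± 0.19, KLB at 0.32 ± 0.11, S1PR2 at 0.07 ± 0.12 and VDR at 0.15 ± 0.16, with 0 called. Blood markers were also on the higher side in BDL (4 of 4 tested, median 0.29, 0 called), with summed levels of 8.79 to 23.5 CPM in BDL and 7.04 to 21.3 CPM in SHAM. Their r with KLB was 0.11 (rho = 0.06, adjusted p = 0.875). It was taken after removal of the treatment means, so it does not bear on the difference between BDL and SHAM. The part of blood in the KLB difference was not tested.

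**Figure D4:**
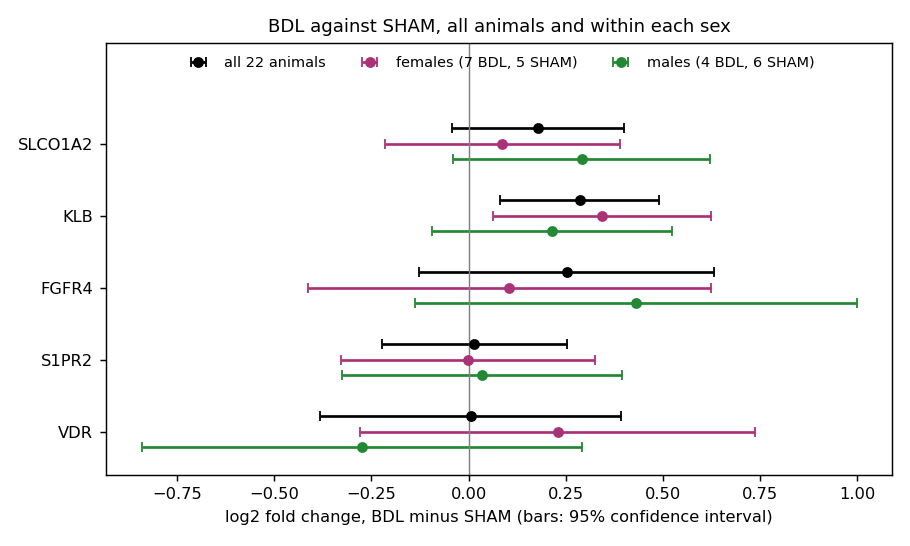
Log2 fold change of BDL minus SHAM for the 5 tested genes with 95% confidence intervals, over all 22 animals and within each sex. The interval of KLB lies above 0 over all animals and in females before adjustment for the number of genes tested, and the intervals of the other 4 genes include 0.

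RefSeq places PYROXD1 over 542 bases and IAPP over 4906 bases of the SLCO1A2 span. PYROXD1, a neighbouring oxidoreductase gene, was at 12.04 CPM on average and had r = 0.33 with SLCO1A2 over animals (rho = 0.27, permutation p = 0.131, adjusted p = 0.392; r = 0.28 without the 2 farthest animals).

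Reads of SLC51A and ABCB11 were few. SLC51A (ENSSSCG00000011846, chromosome 13, 133851775 to 133869753), the alpha subunit of the basolateral exporter of gut and bile ducts, had 69 reads in all, 38 in BDL and 31 in SHAM animals. BDL animals had 1 to 7 reads (median 3) and SHAM animals 0 to 6 (median 3). Only BDL replicates 1 and 11, with 7 reads each, lay above the highest SHAM animal. ABCB11 (ENSSSCG00000015926, chromosome 15, 75402296 to 75487092), the bile salt export pump of the hepatocyte, had 34 reads in all, 16 in BDL and 18 in SHAM animals. It had no read in 8 of 22 libraries and at most 8 in a library, with medians of 1 in both groups. Medians of both genes were at or under 3 reads and no fold change is given. SLC51B, the beta subunit that SLC51A needs, was by contrast counted in every library, at 2.18 ± 0.94 CPM in BDL against 2.55 ± 0.99 under SHAM (log2 fold change -0.22 ± 0.24, adjusted p = 0.913). RefSeq places the non-coding gene LOC110261747 over 1447 bases of the SLC51B span, and RASL12, at a mean of 22.2 CPM, over 52 bases. Whether reads of these 2 genes were counted for SLC51B was not tested.

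Of 19 other genes listed for bile acid transport, not all of them carriers, 15 matched and 11 were tested. Of the latter, 7 were on the higher side, 4 on the lower and 0 called (median 0.04). ABCC1, a broad efflux pump, was at 55.8 ± 6.4 CPM in BDL against 52.5 ± 10.03 under SHAM (0.06 ± 0.09), and ATP8B1, a phospholipid flippase whose loss causes cholestasis, at 38.4 ± 6.0 and 38.7 ± 3.9 CPM (-0.03 ± 0.08). SLC10A1, the gene of NTCP, which takes bile acids up into hepatocytes, was counted at 30.2 ± 5.5 CPM in BDL against 27.2 ± 5.0 under SHAM (0.16 ± 0.11, unadjusted p = 0.149, adjusted p = 0.881), with 322 to 704 reads in each library. The intestinal carrier SLC10A2, looked up after its values were seen, had 0 reads in 22 libraries, which allows up to 3 reads among 384031711. SLC10A3, an orphan relative of these carriers, was at 51.5 ± 6.6 and 50.1 ± 5.1 CPM (0.04 ± 0.07).

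Between the sexes 0 of the 5 tested genes were called by edgeR, DESeq2 or limma-voom, and 0 had an unadjusted p under 0.05 in edgeR, against 5.95% of all genes. Among all 14994 genes 0.0600% were called. Log2 fold changes of females against males were 0.14 ± 0.19 for VDR, -0.01 ± 0.12 for S1PR2, 0.01 ± 0.18 for FGFR4, 0.09 ± 0.10 for KLB and -0.02 ± 0.11 for SLCO1A2, with adjusted p of 0.935 to 0.997. The interaction of treatment and sex called 0 of the 5 and 0% of all genes, with 0 of the 5 and 4.60% of all genes at an unadjusted p under 0.05. Within females and within males, BDL against SHAM called 0 of the 5 and 0% of all genes. Unadjusted p was under 0.05 for KLB alone in females (5.83% of all genes) and for 0 of the 5 in males (4.08% of all genes). Body weight, for which the labels give no unit, was associated with 0 of the 5 and 0% of all genes. Changes per standard deviation of weight lay between -0.06 ± 0.05 for KLB and 0.10 ± 0.10 for VDR. At an unadjusted p under 0.05 there were 0 of the 5 and 7.39% of all genes.

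The genes that varied most like each tested gene over the 22 animals were sought among 12316 others with a symbol, by Pearson's r of log2 CPM after removal of the sex and treatment means. For SLCO1A2 these were TMIE (r = 0.92), NDRG1 (0.92) and ALDH2 (0.90), and for FGFR4 NKD1 (0.86), TRAK2 (0.84) and IGSF11 (0.83). VDR was most like SIK2 (0.83), BRINP2 (0.82) and CCDC6 (0.82), S1PR2 most like HSPA4 (0.79), MTO1 (0.74) and CSTF2T (0.71), and KLB most like SERPINF2 (0.80), OTOS (0.77) and CFAP100 (0.77). SLCO1A2 had r over 0.5 with 7.30% of these genes, FGFR4 with 6.06%, KLB with 4.63%, VDR with 3.27% and S1PR2 with 1.75%. The values share the same libraries and scaling, and the r of a gene picked as the highest of many is a description.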

How the data were processed

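The authors deposited 1 table of whole-number read counts per Ensembl gene for each animal, with no normalization. Trim Galore, HISAT2, HTSeq and DESeq2 and the build Sscrofa11.1 are named per the submitters' processing notes; the sources used here give no versions and no strand setting. The 5 closing lines that name no gene, 29.9% to 34.6% of counted reads, were left out. Symbols were matched for 15029 of 31907 identifiers; positions and overlaps came by symbol from a RefSeq table of the same build.

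Genes were kept by filterByExpr (minimum count 10, minimum total 15), which left 14994. edgeR 4.0.16 (R 4.3.3) fitted sex and treatment with TMM scaling and a robust quasi-likelihood test, Benjamini-Hochberg adjusted over all genes at 0.05. A model of the 4 treatment-by-sex groups gave the interaction and the effects within each sex, and weight was added as a term for its test. Correlations over animals used 100000 two-sided permutations (numpy 2.4.6). Alternatives were other scalings and filters, DESeq2 1.42.0, limma-voom (limma 3.58.1), other covariates and leaving out each animal. The test was checked on simulated counts. No 2 libraries looked like 1 library deposited again (chi-square per degree of freedom 7.20 or more). The p-values set a difference or a relation against the spread between these animals, which were treated as independent. The genes and lists were chosen with earlier results of these data known. Named were these genes, up to 2 genes of each list by level and by p, and the 3 most alike.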

Additional observations from a re-analysis of the deposited data

Results flagged for a closer look

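Within the 4 treatment-by-sex groups, 36 sets of values of the 9 genes were examined for an animal far from the rest of its group, which chance gives in about 1 in 20 sets, and 2 stood out. VDR in SHAM male replicate 9 was at 9.03 CPM, while the other 5 SHAM males were at 2.48 to 4.86 CPM. This animal is 1 of the 4 with over 400 CPM of the choroid plexus marker TTR. The others, BDL replicates 1 and 4 and SHAM replicate 10, were at 6.46, 4.64 and 4.47 CPM of VDR. Over the 22 animals VDR had r = 0.22 with choroid plexus markers (rho = 0.02, permutation p = 0.330, adjusted p = 0.600). Whether that tissue adds to the VDR reads of SHAM replicate 9 was not tested. NR1H4 in SHAM male replicate 10, another of the 4 animals with over 400 CPM of TTR, was at 0.397 CPM (8 reads). The other SHAM males were at 0.0551 to 0.166 CPM (1 to 3 reads). Of the rest of those 4, BDL replicate 1 had 0 NR1H4 reads, and BDL replicate 4 and SHAM replicate 9 had 3 each. The highest NR1H4 value of all animals was in SHAM replicate 2 (9 reads, 0.526 CPM), which is not among those 4. Whether choroid plexus adds to NR1H4 reads was not tested.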

How the results depend on the processing

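No paired analysis was possible because replicate numbers were assigned by accession order and link no animal of one group to one of the other. The count of changed genes among the 5 tested stayed at 0 in 52 alternative fits of the 4 comparisons. Over 33 alternatives of BDL against SHAM the log2 fold changes of KLB, SLCO1A2 and FGFR4 kept their direction, with adjusted p no lower than 0.688, 0.730 and 0.749. Leaving out single animals gave 0.24 to 0.32 for KLB (unadjusted p 0.00348 to 0.0278), 0.14 to 0.22 for SLCO1A2, 0.18 to 0.39 for FGFR4, -0.05 to 0.14 for VDR (-0.0536 to 0.145) and -0.02 to 0.08 for S1PR2 (-0.0195 to 0.0758). The female against male sign turned for FGFR4 with limma-voom (-0.0348) and for SLCO1A2 with no treatment term (0.0053); both lie well within their standard errors. Over all genes DESeq2 called 1 gene for BDL against SHAM where edgeR called 0, 23 between the sexes where edgeR called 9 (31 without the count filter), and 8 for body weight where edgeR called 0. Depth limits NR1H4, SLC51A and ABCB11, whose medians were at or under 3 reads per library.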

Other observations

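The hepatocyte uptake carrier SLC10A1 was counted in every cerebellar library, at 18.8 to 44.0 CPM, as were the other members of the hepatocyte list except CYP7A1. TF, APOA1 and SERPINA1 averaged 382, 134 and 36.2 CPM, and ALB, the albumin gene, was at 2.85 to 5.34 CPM. CYP7A1, the rate-limiting enzyme of bile acid synthesis, had 11 reads in 7 libraries. RefSeq places the splicing factor gene SRSF5 1526 bases away on chromosome 7 (93393379 to 93398510, against 93400037 to 93421989 for SLC10A1), at a mean of 117 CPM. SLC10A1 and SRSF5 had r = 0.23 over the 22 animals (rho = 0.34, permutation p = 0.303, adjusted p = 0.455; r = 0.30 without the 2 farthest animals). Whether the reads counted for SLC10A1 come from its coding exons was not tested.

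The muscarinic receptor CHRM3, which bile acids can bind, was chosen after its values were seen. It averaged 1.52 ± 0.76 CPM in BDL against 2.16 ± 0.58 under SHAM, and 2 of 11 BDL animals exceeded the latter mean (log2 fold change -0.49 ± 0.24, unadjusted p = 0.0481, edgeR adjusted p = 0.881). PDE4D, also chosen afterwards, was at 56.0 ± 6.5 and 61.5 ± 7.2 CPM (-0.15 ± 0.07, unadjusted p = 0.0355, adjusted p = 0.881). SLCO1C1, the thyroid hormone carrier of choroid plexus and endothelium, reached 5.73 CPM in BDL replicate 4, the library with the highest choroid plexus markers, against a median of 0.417 CPM over all animals.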
